A study of Mus musculus with 23 samples.

Results

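The genes described here are the major histocompatibility complex (MHC) and antigen presentation genes of mouse skeletal muscle. They were taken by name from a table of raw read counts for 9 libraries: protein-coding genes whose symbols start with H2-, together with B2m, Tap1, Tap2, Tapbp, Cd74, Ciita and Nlrc5, with at least 30 counts in all. Of 41 genes with such names 29 reached the minimum, among 54446 rows of the table, of which 30049 held a count. H2-Q2 was just inside with 30 counts, H2-Q1 with 27 and H2-Eb2 with 25 were just outside, and 6 names had 0 counts. The 29 genes comprise 18 on the class I side (13 heavy chains and 5 accessory genes) and 10 on the class II side. H2-Ke6 belongs by name only: it encodes a steroid dehydrogenase and is counted with neither class. In the annotation of GRCm38, 25 of them lie on chromosome 17. A further table, with 8 libraries, listed 26 of them, 16 of class I and 10 of class II.

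RNA came from skeletal muscle of mice, and the series title places the study with transcription factors that control genes of the proteasome. The first set held 3 libraries of denervated muscle from PAX4 KO mice, 3 of denervated muscle from WT mice and 3 of innervated control muscle from WT mice. The second set held denervated muscle only: 3 libraries labelled NRF1-PAX4 double KD, 3 labelled NRF1 KD and 2 labelled WT con. Denervated muscle was taken 10 d after the nerve supply was interrupted. In the labels NRF1 carries the suffix PAL. Strain, age, sex, the promoter or Cre line behind the knockout and the method of knockdown are not among the labels. It is also not stated whether libraries of a group are separate animals; p-values here describe spread among libraries, part of which may be technical.

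MHC class I molecules show peptides from inside a cell to CD8 T cells. A class I molecule is a heavy chain (H2-K1, H2-D1 and the non-classical H2-Q, H2-T and H2-M genes) paired with the light chain beta-2 microglobulin, from B2m. The transporter made of TAP1 and TAP2 carries peptides into the endoplasmic reticulum, where tapasin, from Tapbp, helps to load them, and NLRC5 is the transactivator of class I genes. Class II molecules show peptides from endocytosed proteins to CD4 T cells and are made chiefly by macrophages, dendritic cells and B cells. Their alpha and beta chains (H2-Aa, H2-Ab1, H2-Eb1) travel with the invariant chain, from Cd74; H2-DM exchanges its remnant for peptide, H2-O restrains H2-DM, and CIITA is the transactivator of the class II genes. Resting muscle fibres carry little class I and no class II on their surface.

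Libraries held 21716216 to 42821396 counts in the first set and 23740769 to 30165765 recovered reads in the second. Skeletal muscle fibre markers were abundant in every library, with sums of 58938 to 77499 CPM in PAX4 KO, 72805 to 81667 CPM in denervated WT and 105630 to 129660 CPM in innervated WT libraries. The innervated WT sums thus lay above all denervated ones. No Pax4 read was counted in any of the 9 libraries with raw counts, so that the label PAX4 KO could not be checked on its own transcript. Nrf1 lay at 476 to 524 normalised counts in the libraries labelled NRF1 KD and at 427 to 454 in those labelled double KD, against 444 to 488 in WT con, so its mRNA was not lower in libraries labelled NRF1 KD. Groups are therefore named by their labels only. In bulk muscle, more cells of a type and more RNA per cell cannot be told apart.

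4 libraries stood apart on the MHC genes themselves, a pattern chosen after the values were seen. H2-Ea-ps is the locus of the alpha chain of the second mouse class II molecule, intact in some inbred strains and a pseudogene in others; it is not protein-coding in the count table and so not among the 29. It had 87 and 59 reads in PAX4 KO libraries 2 and 3 and 42 and 39 in double KD libraries 2 and 3. Denervated WT library 2 had 1 read, and every other library had 0. The ratio of H2-Eb1 to H2-Ab1 was 0.538 and 0.561 in the same PAX4 KO libraries and 0.645 and 0.562 in the same double KD libraries, against 0.927 to 1.13 in the other 13. The ratio of the heavy chains H2-K1 and H2-D1 was 0.425, 0.467, 0.511 and 0.533 in these 4, against 0.740 to 1.01 in the others. H2-Q2 had 66 and 62 reads in double KD libraries 2 and 3 and at most 1 in any other library of the second set. Whether strain differed between libraries was not tested. Class medians that rest on these libraries are given with and without them, as are fold changes of some genes.

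**Figure D1:**
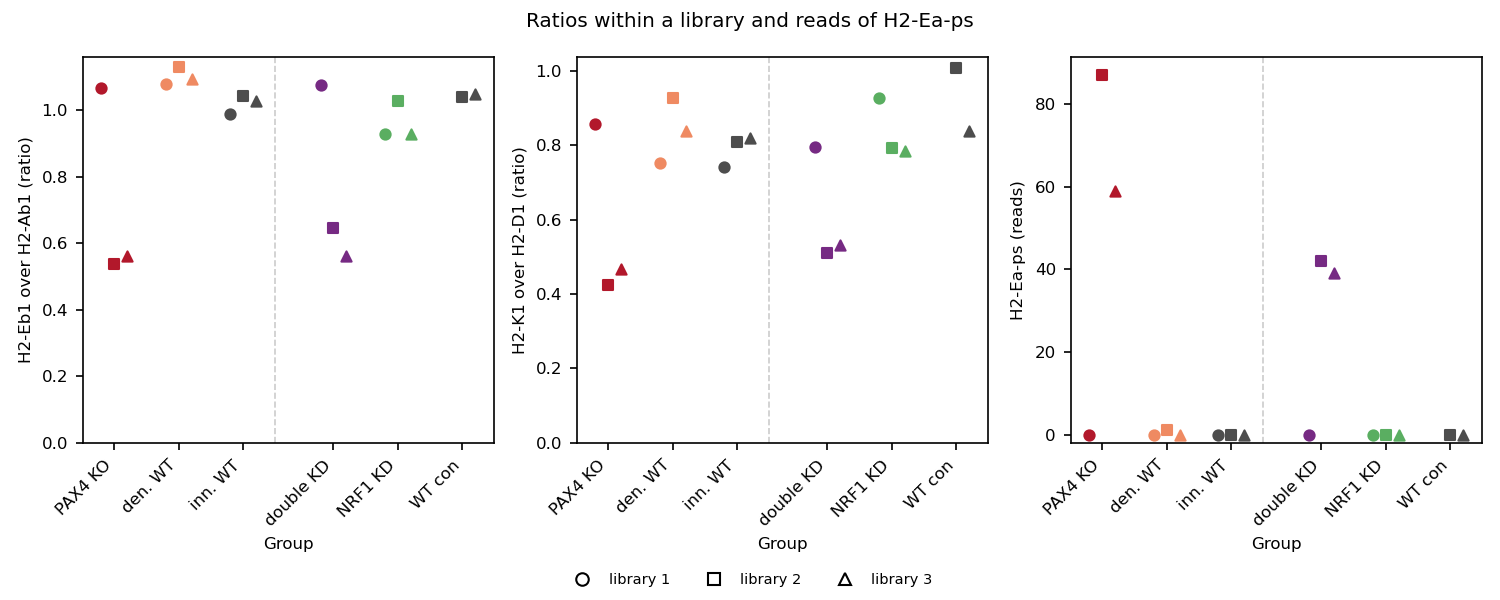
Ratio of H2-Eb1 to H2-Ab1 (left), ratio of H2-K1 to H2-D1 (middle) and reads of H2-Ea-ps (right) in each library; symbols mark the library number and the dashed line parts the first set from the second. PAX4 KO libraries 2 and 3 and double KD libraries 2 and 3 lie at H2-Eb1 over H2-Ab1 ratios of 0.538 to 0.645, below all other libraries, and hold 39 to 87 reads of H2-Ea-ps.

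The promoters of these genes carry short conserved boxes read by shared factors: the Y box, bound by NF-Y, the X2 box, bound by CREB family proteins, and in some class I genes an interferon-stimulated element. Because the class II members moved together in several comparisons and the class I members did so in fewer, promoters of a pair from each side are shown, as RefSeq gives them on GRCm38.p6 from 250 bases before to 50 bases after the start. Capitals mark CCAAT (Y box core), TGACG (X2 box core) and the interferon element core, which is GAAA, any 2 bases and GAAA again; all were searched on both strands, so that a match on the opposite strand reads as its reverse complement. H2-Aa lies at chr17:34287774-34288073 on the minus strand, H2-Eb1 at chr17:34305617-34305916, H2-D1 at chr17:35262844-35263143 and B2m at chr2:122147437-122147736, all 3 on the plus strand.
H2-Aa: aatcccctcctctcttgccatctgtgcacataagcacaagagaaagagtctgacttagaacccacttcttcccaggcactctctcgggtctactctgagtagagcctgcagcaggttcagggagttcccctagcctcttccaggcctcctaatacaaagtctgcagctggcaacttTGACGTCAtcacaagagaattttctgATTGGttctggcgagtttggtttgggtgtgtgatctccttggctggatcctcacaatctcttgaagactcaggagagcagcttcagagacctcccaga
H2-Eb1: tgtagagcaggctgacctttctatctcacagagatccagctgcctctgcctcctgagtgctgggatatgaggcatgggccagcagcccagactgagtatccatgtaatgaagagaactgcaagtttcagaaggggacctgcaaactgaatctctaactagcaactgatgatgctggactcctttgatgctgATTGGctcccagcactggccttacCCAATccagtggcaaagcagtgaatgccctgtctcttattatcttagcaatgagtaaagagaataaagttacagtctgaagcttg
H2-D1: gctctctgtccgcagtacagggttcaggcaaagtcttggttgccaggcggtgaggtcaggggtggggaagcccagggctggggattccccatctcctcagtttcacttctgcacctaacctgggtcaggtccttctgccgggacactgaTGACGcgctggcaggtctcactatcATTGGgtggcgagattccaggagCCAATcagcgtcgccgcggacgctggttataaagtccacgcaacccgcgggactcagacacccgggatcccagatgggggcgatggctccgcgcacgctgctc
B2m: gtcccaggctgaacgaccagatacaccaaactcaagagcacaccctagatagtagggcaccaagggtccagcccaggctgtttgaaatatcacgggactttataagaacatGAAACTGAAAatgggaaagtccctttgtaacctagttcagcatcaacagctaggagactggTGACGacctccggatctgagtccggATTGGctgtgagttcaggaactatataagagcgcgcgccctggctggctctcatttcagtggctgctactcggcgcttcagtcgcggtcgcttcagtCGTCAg
In H2-Aa the TGACG match and its reverse complement overlap as 1 palindrome, upstream of the Y box core.

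RefSeq promoters were at hand for 23 of the 29 genes. Of 17 promoter entries of class I members 16 held CCAAT (94.1%), as did 7 of 8 entries of class II members (87.5%), beside 37.4% of all 32851 promoters of the same length. TGACG was in 10 of 17 class I entries (58.8%) and in 1 of 8 class II entries (12.5%, H2-Aa), beside 20.8% of all. Both strings stood together in the same 10 class I entries and in H2-Aa, beside 7.73% of all promoters. The interferon element core was found for B2m, H2-T22 and H2-T23 among class I entries (17.6%) and in 0 of 8 class II entries, beside 3.44% of all. The class I heavy chains are close paralogs that share promoter sequence, so their entries are not independent. Counted by gene, TGACG was in 9 of 15 class I members. A match is a string of letters and not a shown binding site. Order and spacing were not required, and in Tap1 and H2-T22 TGACG lay downstream of every CCAAT match. Only exact strings were counted, so a box spelled otherwise was passed over and a missing string is not a missing box.

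Per kilobase of exon, B2m had the highest level of the 29 genes in innervated WT muscle, at 169.8 ± 34.5 CPM per kb (SD, n = 3 libraries), followed by Cd74 at 71.8 ± 28.6, H2-D1 at 51.9 ± 9.47 and H2-K1 at 36.1 ± 7.58. H2-Eb1, H2-Aa and H2-Ab1 followed at 21.5 ± 8.82, 17.1 ± 6.30 and 15.9 ± 6.29 CPM per kb, and these 3 did not differ beyond their spread. Both transactivators were low, with Nlrc5 at 0.439 ± 0.110 and Ciita at 0.338 ± 0.131 CPM per kb. H2-Ob, H2-M9, H2-Oa, H2-Q2 and H2-M2 were the lowest, all under 0.2 CPM per kb. Reads of close paralogs among the heavy chains (H2-Q6 and H2-Q7, and in part H2-K1 and H2-D1) may be split between them by the authors' counting, so single heavy chain values are uncertain.

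Denervated WT muscle was compared with innervated WT muscle to see what loss of the nerve does to these genes. The class II side rose: 7 of its 10 members passed the threshold (edgeR, adjusted p under 0.05) and 0 fell; the median of the 10 log2 fold changes was 1.33. On the class I side 1 of 16 tested members rose and 0 fell, with a median of -0.06, or -0.08 over the 15 without H2-M2. Among all 16146 genes tested 16.5% were called higher and 15.8% lower, and their median was 0.02. Every denervated WT library lay above every innervated WT library for 8 of 10 class II members and 1 of 16 class I members, beside 23.9% of all genes; H2-T22 and H2-Ke6 lay wholly below, beside 22.6%. An unadjusted p under 0.05 was reached by 10 of the 27 tested members, beside 43.4% of all genes.

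Cd74, the invariant chain, stood at 414, 252 and 289 CPM in denervated WT libraries 1 to 3, against 108, 173 and 79.7 CPM in innervated WT libraries 1 to 3. H2-Ab1, the beta chain of the first class II molecule, stood at 146, 84.0 and 111 CPM in denervated WT muscle and at 40.1, 57.4 and 25.1 CPM in innervated WT muscle. H2-Eb1, the beta chain of the second, stood at 158, 94.9 and 122 CPM in denervated WT muscle and at 39.7, 59.9 and 25.8 CPM in innervated WT muscle. The groups did not overlap for any of these, and library 1 was the highest of the denervated WT libraries and library 2 of the innervated WT libraries each time. The log2 fold changes were 1.40 ± 0.36 (SE) for Cd74 (adjusted p = 0.0137), 1.48 ± 0.37 for H2-Ab1 (adjusted p = 0.0132) and 1.58 ± 0.29 for H2-Eb1 (adjusted p = 0.00290), which for H2-Eb1 is a 2.99-fold difference. H2-Aa, the alpha chain, stood at 219.9, 135 and 145 CPM in denervated WT muscle and at 61.6, 90.4 and 42.9 CPM in innervated WT muscle, without overlap (log2 fold change 1.36 ± 0.35, adjusted p = 0.0148).

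Of the 5 peptide exchange genes 2 rose, H2-DMa and H2-Oa, and so did the transactivator Ciita. H2-DMa, the alpha chain of H2-DM, stood at 21.3, 9.48 and 11.9 CPM in denervated WT muscle and at 5.47, 8.06 and 4.11 CPM in innervated WT muscle (log2 fold change 1.27 ± 0.43, adjusted p = 0.0453). Ciita stood at 11.3, 5.01 and 5.97 CPM in denervated WT muscle and at 2.56, 4.66 and 2.44 CPM in innervated WT muscle (log2 fold change 1.19 ± 0.41, adjusted p = 0.0481). Neither gene's groups overlapped, but denervated WT library 2 lay close above innervated WT library 2 in both. H2-Oa, a chain of H2-O, had 18, 9 and 12 counts in denervated WT libraries, against 1, 4 and 2 counts in innervated WT libraries, and rose by 2.00 ± 0.57 on the log2 scale (adjusted p = 0.0215). H2-DMb1 missed the threshold at 1.31 ± 0.47 (adjusted p = 0.0542) with no overlap of its libraries, and so did H2-DMb2 (1.20 ± 0.72, adjusted p = 0.226) and H2-Ob (0.38 ± 0.35, adjusted p = 0.437), both with overlap.

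On the class I side the values of the groups lay close together. B2m stood at 132, 141 and 131 CPM in denervated WT muscle and at 126, 180.1 and 132 CPM in innervated WT muscle (log2 fold change -0.12 ± 0.15, adjusted p = 0.592). H2-D1 averaged 126 ± 8.45 CPM in denervated WT muscle and 134 ± 24.4 CPM in innervated WT muscle (SD, n = 3 each), and H2-K1 averaged 105 ± 10.2 CPM in denervated WT muscle and 106 ± 22.3 CPM in innervated WT muscle. The innervated WT libraries spanned the denervated WT ones for B2m, H2-K1 and Nlrc5. Nlrc5 stood at 3.88, 3.80 and 3.66 CPM in denervated WT muscle and at 2.96, 4.77 and 3.45 CPM in innervated WT muscle (log2 fold change 0.01 ± 0.23, adjusted p = 0.975), Tap1 was at 0.13 ± 0.18 (adjusted p = 0.621) and Tapbp at -0.04 ± 0.12 (adjusted p = 0.827). Log2 fold changes of the other tested class I members ran to -0.60 ± 0.52 for H2-Q6. H2-M2, a non-classical heavy chain, was the class I gene that passed (adjusted p = 0.0467), on 16, 2 and 6 counts in denervated WT libraries and 0, 0 and 1 counts in innervated WT libraries, too few for a fold to be given. H2-M9, also at few counts and not tested, had 5, 2 and 1 counts in denervated WT libraries and 4, 9 and 8 in innervated WT libraries.

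The count of 8 genes called higher moved with single libraries. It was 2 without innervated WT library 1 or 3, 4 without denervated WT library 1, and 5 without denervated WT library 3. Without PAX4 KO library 3, which enters only the shared estimate of spread, it was 5 too. Over all genes 1741, 1761, 2366, 2039 and 2537 were called higher in these runs, against 2661 with all libraries. The class II median in these runs was 1.26, 1.09, 0.99, 1.46 and 1.33, against 1.33 with all libraries. It was highest, at 1.77, without innervated WT library 2. H2-Eb1 stayed under the threshold with an adjusted p of at most 0.0162 in every alternative run, while Cd74 reached 0.0559 and H2-Aa 0.0589. The authors' deposited table gives an adjusted p under 0.05 for 6 of 10 class II members and 0 of 18 class I members in this comparison.

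**Figure D2:**
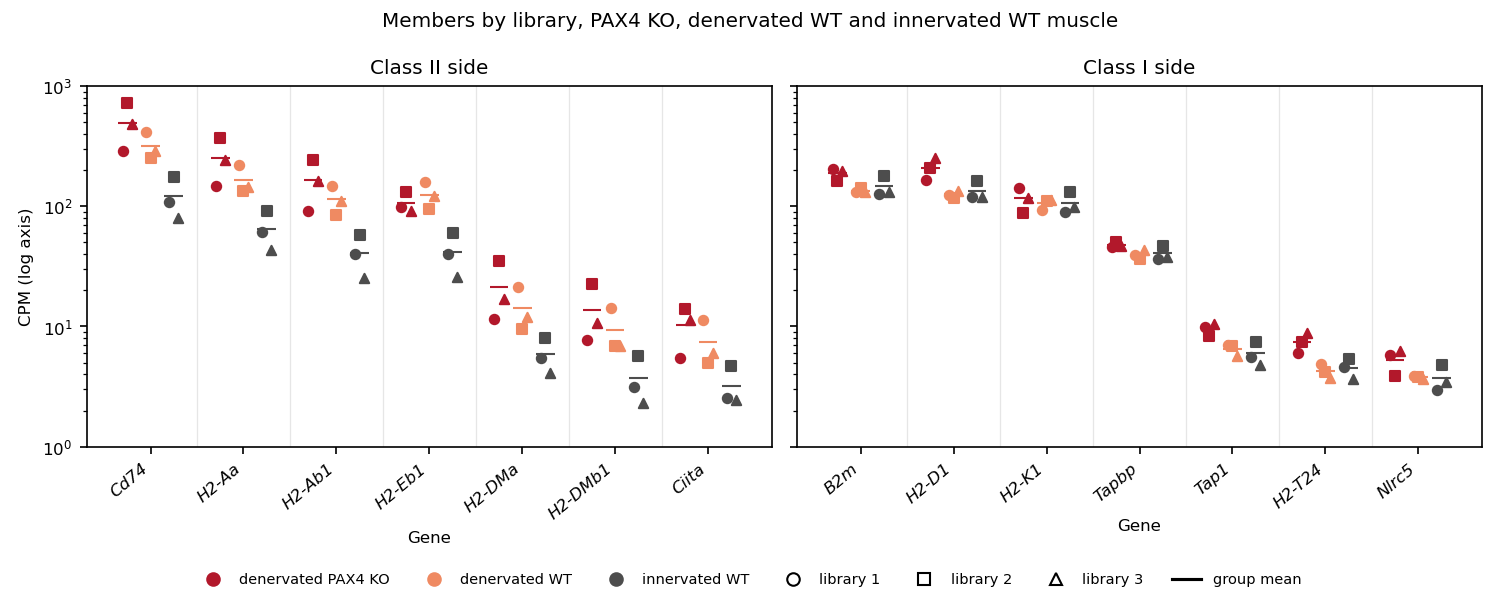
CPM on a log axis for 7 class II side genes (left) and 7 class I side genes (right) in PAX4 KO, denervated WT and innervated WT libraries; each point is 1 library and bars are group means. The denervated WT points of Cd74, H2-Aa, H2-Ab1 and H2-Eb1 lie above all innervated WT points, while B2m lies between 126 and 180.1 CPM in both WT groups.

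Markers of macrophages moved with the class II genes. The summed level of 12 macrophage markers was 858, 422 and 430 CPM in denervated WT libraries 1 to 3, against 257, 358 and 119 CPM in innervated WT libraries 1 to 3, and 8 of the 12 were called higher. The highest library of each group was the same for the macrophage sum and for Cd74. The summed class II level divided by the macrophage sum was 1.16, 1.40 and 1.62 in denervated WT libraries, against 1.02, 1.12 and 1.55 in innervated WT libraries, so these ratios overlapped. Of 8 dendritic cell markers 0 were called higher and 1 lower, with sums of 19.2 to 35.4 CPM in denervated WT muscle and 18.7 to 24.3 CPM in innervated WT muscle. B cell markers summed to 2.70 to 5.16 CPM in denervated WT muscle and 5.37 to 10.4 CPM in innervated WT muscle, with 0 of 6 tested called higher and 1 lower, and T cell markers to 4.61 to 9.24 CPM in denervated WT muscle and at least 11.1 CPM in innervated WT muscle. Of the 6 T cell markers tested 5 had positive log2 fold changes and were not called, and 1, Cd3e, was lower (-2.08, adjusted p = 0.00515); it makes up most of the innervated WT sum. Natural killer cell markers summed to 3.51 to 4.14 CPM in denervated WT muscle and 0.976 to 1.97 CPM in innervated WT muscle, with 2 of 6 called higher. Of 10 muscle fibre markers 1 was higher and 4 lower. Of 9 endothelial markers 0 were higher and 6 lower, beside 15.8% of all genes called lower. None of the macrophage, dendritic, B, T or natural killer cell markers was at 0 in a whole group. The part of these cells in the class I and class II results was not tested.

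Genes that supply peptides or control the MHC genes were followed as lists outside the 29. Of 6 endosomal proteases and reductases that prepare class II peptides 4 rose and 0 fell in denervated WT muscle, led by the endopeptidase gene Lgmn (133 ± 12.1 CPM in denervated WT, 44.5 ± 14.9 CPM in innervated WT, SD, n = 3 each, adjusted p = 0.000934) and the cathepsin gene Ctsl (log2 fold change 1.57 ± 0.30, adjusted p = 0.00349). Of 10 genes that supply or load class I peptides 3 rose and 1 fell: the chaperone genes Canx (0.62 ± 0.09, adjusted p = 0.00108) and Pdia3 (0.44 ± 0.14, adjusted p = 0.0371) were among those higher, and Psme1, a proteasome activator subunit, was lower (-0.36 ± 0.10, adjusted p = 0.0240). Among 12 transcription factors of MHC genes 1 rose and 4 fell. The riser was Spi1, a factor of macrophages and B cells (1.64 ± 0.40, adjusted p = 0.0111), and Creb1 and Nfyb, which encode proteins that bind the X2 and Y boxes, fell by 0.61 and 0.59 on the log2 scale (adjusted p = 0.00633 and 0.0138). In the interferon gamma receptor path 0 of 5 tested genes rose and 2 fell, Ifngr2 (-1.17 ± 0.14, adjusted p = 0.000332) and Jak2 (-0.85 ± 0.14, adjusted p = 0.00194). Of 5 costimulation genes Cd86 rose (1.16 ± 0.32, adjusted p = 0.0186), and of 4 tested class I related genes outside the H2 names Mr1, which presents vitamin metabolites, fell (-0.86 ± 0.17, adjusted p = 0.00387).

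Denervated PAX4 KO muscle was set against denervated WT muscle to see what the knockout adds, sharing the denervated WT libraries with the comparison above. No member passed the threshold in edgeR: 0 of 27 were called, as were 3 genes of 16146 in all (0.0186% higher and 0.0% lower). All 16 tested class I members had a positive log2 fold change (median 0.31), as did 9 of 10 class II members (median 0.54), beside a median of 0.01 over all genes. An unadjusted p under 0.05 was reached by 6 of the 27, beside 12.9% of all genes. PAX4 KO libraries lay wholly above denervated WT libraries for 7 class I members and 0 class II members, beside 9.69% of all genes, and wholly below for H2-Ke6 alone, beside 7.23%.

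H2-D1, a classical heavy chain, stood at 166, 209 and 252 CPM in PAX4 KO libraries 1 to 3, against 125, 118 and 135 CPM in denervated WT libraries 1 to 3. Its groups did not overlap, and its log2 fold change was 0.73 ± 0.17 (adjusted p = 0.264, edgeR). DESeq2 called H2-D1 and H2-T24, and edgeR run with no filter called H2-D1. Over all genes DESeq2 called 140 higher and 73 lower, and the run with no filter 348 and 108, against 3 and 0 in the main fit. Adjusted p over all alternatives ran from 0.0126 to 0.997 for H2-D1 and from 0.0424 to 0.997 for H2-T24. In the authors' deposited table for denervated against knockdown muscle, whose header does not name the direction, H2-D1 is at 0.73 on the log2 scale with an adjusted p of 0.0166, the 1 class I member of 14 under 0.05, and 0 of 9 class II members are. H2-T24, a non-classical heavy chain, stood at 6.06, 7.50 and 8.80 CPM in PAX4 KO muscle and at 4.91, 4.20 and 3.72 CPM in denervated WT muscle (0.80 ± 0.20, adjusted p = 0.264). With PAX4 KO library 1 alone the log2 fold change was 0.40 for H2-D1 and 0.50 for H2-T24, the lone library being assumed to vary like the others.

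The accessory genes of class I were spread likewise. B2m stood at 204, 163 and 195 CPM in PAX4 KO muscle and at 132, 141 and 131 CPM in denervated WT muscle (0.48 ± 0.15, adjusted p = 0.300). Tap1 stood at 9.92, 8.41 and 10.6 CPM in PAX4 KO muscle and at 6.98, 6.94 and 5.73 CPM in denervated WT muscle (0.56 ± 0.18, adjusted p = 0.301). Tapbp stood at 46.1, 50.8 and 46.4 CPM in PAX4 KO muscle and at 39.2, 36.1 and 43.2 CPM in denervated WT muscle (0.27 ± 0.12, adjusted p = 0.380). No library of either group crossed into the other for these genes. In Nlrc5 the groups overlapped, with 5.81, 3.86 and 6.26 CPM in PAX4 KO muscle and 3.88, 3.80 and 3.66 CPM in denervated WT muscle (0.49 ± 0.23, adjusted p = 0.398). H2-K1 overlapped throughout, at 143, 88.6 and 118 CPM in PAX4 KO muscle and 93.8, 109 and 113 CPM in denervated WT muscle (0.14 ± 0.19, adjusted p = 0.772). PAX4 KO library 2 was the lowest of all 6 for H2-K1.

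Most class II genes differed widely between PAX4 KO libraries. Cd74 stood at 288, 716 and 480.1 CPM in PAX4 KO libraries 1 to 3, against 414, 252 and 289 CPM in denervated WT libraries, a log2 fold change of 0.64 ± 0.35 (adjusted p = 0.456). H2-Ab1 stood at 91.6, 243 and 162 CPM in PAX4 KO muscle, against 146, 84.0 and 111 CPM in denervated WT muscle (0.54 ± 0.36, adjusted p = 0.542). H2-Aa stood at 147, 370.2 and 245 CPM in PAX4 KO muscle, against 219.9, 135 and 145 CPM in denervated WT muscle (0.61 ± 0.35, adjusted p = 0.467). Library 2 was the highest and library 1 the lowest of the PAX4 KO libraries in each, and the groups overlapped. H2-Eb1 alone of the 10 had a negative value, -0.23 ± 0.28 (adjusted p = 0.745), at 97.7, 131 and 90.7 CPM in PAX4 KO muscle and 158, 94.9 and 122 CPM in denervated WT muscle. Without PAX4 KO libraries 2 and 3 the log2 fold change was -0.14 for Cd74, -0.36 for H2-Eb1, 0.44 for H2-K1 and 0.60 for B2m; the class II median was -0.31 and the class I median 0.47; without library 1 they were 0.83 and 0.29.

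**Figure D3:**
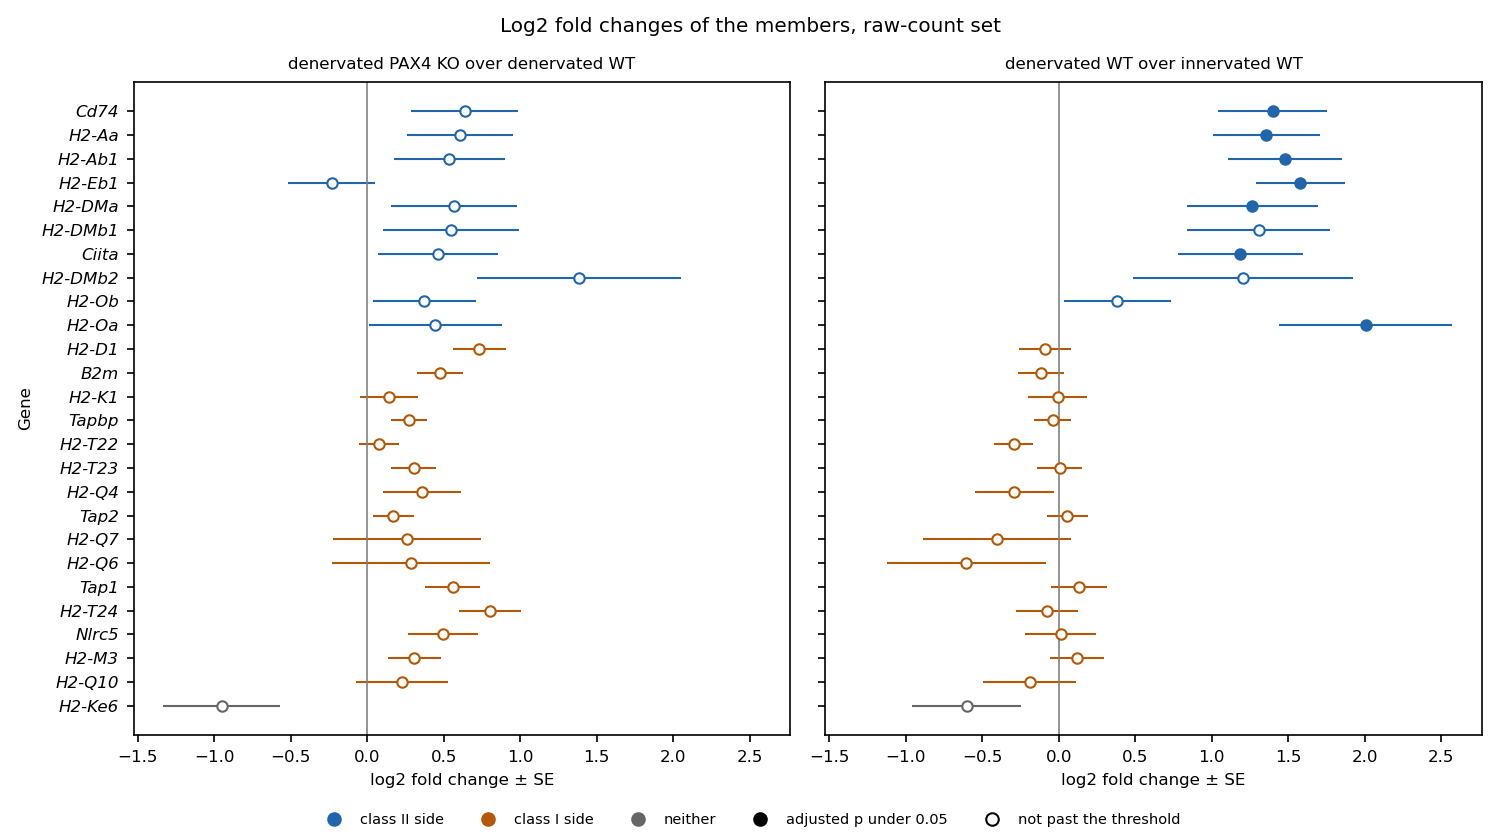
Log2 fold change with its SE (edgeR) for 26 members, PAX4 KO over denervated WT (left) and denervated WT over innervated WT (right); filled points have an adjusted p under 0.05, and H2-M2, H2-M9 and H2-Q2, at few counts, are left out. Class II members lie at 0.38 to 2.00 on the right with 7 filled, class I members lie around 0 there, and no point is filled on the left, where 15 of 15 class I members shown lie above 0.

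Macrophage markers summed to 766, 1341 and 955 CPM in PAX4 KO libraries 1 to 3, against 858, 422 and 430 CPM in denervated WT libraries, with 12 of 12 log2 fold changes positive and 0 called. The class II sum over the macrophage sum was 0.851, 1.15 and 1.07 in PAX4 KO libraries, against 1.16, 1.40 and 1.62 in denervated WT libraries. These ratios did not overlap, with every PAX4 KO library the lower, though library 2 only just. For the summed class I level the same ratio was 0.925, 0.460 and 0.777 in PAX4 KO libraries and 0.565, 1.22 and 1.24 in denervated WT libraries. Fibroblast markers summed to 2300.3, 5861 and 2409 CPM in PAX4 KO libraries 1 to 3, against 1913, 1474 and 1472 CPM in denervated WT libraries, higher in every PAX4 KO library, with 6 of 6 log2 fold changes positive and 0 called. Their part in these values was not tested. In the lists outside the 29, 0 of 42 tested genes were called by edgeR, while 14 had an unadjusted p under 0.05. Pdia3, of class I loading, was at 0.55 (adjusted p = 0.264), Ifi30, a thiol reductase of class II processing, at 0.99 (adjusted p = 0.315) and Cd86 at 0.90 (adjusted p = 0.306).

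H2-Ke6, of neither class, stood at 0.395, 0.182 and 0.440 CPM in PAX4 KO muscle, 0.794, 0.755 and 0.471 CPM in denervated WT muscle and 0.837, 1.23 and 0.976 CPM in innervated WT muscle. Its PAX4 KO libraries were below all WT libraries. Against denervated WT muscle its log2 fold change was -0.95 ± 0.38 (adjusted p = 0.355), and against innervated WT muscle it fell by 1.55 on the log2 scale (SE 0.38, adjusted p = 0.00888).

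Denervated PAX4 KO muscle against innervated WT muscle joins both differences and shares its libraries with each. Here 9 of 10 class II members rose (median log2 fold change 1.91), and 4 of 16 class I members did (median 0.27, or 0.23 without H2-M2). Genome-wide 21.8% of genes were called higher and 18.2% lower, and an unadjusted p under 0.05 was reached by 16 of the 27, beside 49.1% of all genes. Cd74 averaged 495 ± 214 CPM in PAX4 KO muscle and 121 ± 48.0 CPM in innervated WT muscle (SD, n = 3 each), a 4.10-fold difference (adjusted p = 0.00193). H2-DMb1 averaged 13.6 ± 7.93 CPM in PAX4 KO muscle and 3.72 ± 1.77 CPM in innervated WT muscle (log2 fold change 1.85 ± 0.47, adjusted p = 0.0106). H2-Oa rose by 2.45 ± 0.56 (adjusted p = 0.00623) and H2-DMb2 by 2.59 ± 0.72 (adjusted p = 0.0166). H2-DMb2 had 1.30, 10.0 and 4.52 CPM in PAX4 KO libraries, against 0.394, 1.45 and 0.662 CPM in innervated WT libraries, which overlap. H2-Ob did not pass (0.75 ± 0.35, adjusted p = 0.110).

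The 4 class I members were Tap1 (0.69 ± 0.18, adjusted p = 0.0132), H2-D1 (0.64 ± 0.17, adjusted p = 0.0135), H2-T24 (0.72 ± 0.20, adjusted p = 0.0174) and H2-M2 (adjusted p = 0.0181, on 3, 14 and 14 counts in PAX4 KO libraries and 0, 0 and 1 in innervated WT libraries). Without PAX4 KO libraries 2 and 3, which leaves library 1 alone, the class II median was 1.09 and the class I median 0.43. Fold changes of single genes in this comparison are given with all libraries only. Without innervated WT library 1 the 13 members called higher became 8, while all genes called higher fell from 3522 to 2523. Of 12 macrophage markers 11 rose, and their sum was 766 to 1341 CPM in PAX4 KO muscle, against 119 to 358 CPM in innervated WT muscle. Other cell markers differed as well. Of those tested, 2 of 6 natural killer cell, 3 of 4 neutrophil and 2 of 6 fibroblast markers were higher. Dendritic cell and T cell markers went both ways, with 3 of 8 and 3 of 6 higher and 1 of each lower. The T cell sum was at most 10.08 CPM in PAX4 KO libraries and at least 11.1 CPM in innervated WT libraries. Lower too were 5 of 6 B cell and 8 of 9 endothelial markers. The part of these cells in the result was not tested. The class II sum over the macrophage sum was 0.851 to 1.15 in PAX4 KO libraries and 1.02 to 1.55 in innervated WT libraries, which overlap. All 6 class II processing genes rose, led by Lgmn (1.86 ± 0.23, adjusted p = 0.000337) and Ctss (2.92 ± 0.49, adjusted p = 0.00135), the cathepsin gene whose product cleaves the invariant chain. Over all lists outside the 29, 16 of 42 tested genes rose and 7 fell, beside the backgrounds above.

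In the second set, denervated NRF1 KD muscle was compared with denervated WT con muscle. Members of both classes rose: 8 of 16 class I members and 5 of 10 class II members passed (limma, adjusted p under 0.05), and 0 fell. The background was 7.58% of 15624 genes called higher and 3.72% lower. The median log2 fold change was 0.79 for class I (0.85 over the 15 without H2-Q2) and 1.14 for class II. Every NRF1 KD library lay above both WT con libraries for 23 of the 26 listed members, beside 22.5% of all genes, and 20 of the 26 had an unadjusted p under 0.05, beside 27.6%. Values here are normalised counts and cannot be set beside CPM of the first set.

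B2m stood at 5554, 6384 and 6853 normalised counts in NRF1 KD libraries 1 to 3, against 3547 and 3274 in WT con libraries 2 and 3, and rose by 0.87 ± 0.13 on the log2 scale (adjusted p = 0.00416). H2-D1 stood at 4609.9, 6293 and 6820.4 in NRF1 KD muscle, against 3128 and 3246 in WT con muscle (0.87 ± 0.16, adjusted p = 0.00900). Nlrc5 stood at 109, 179 and 199.7 in NRF1 KD muscle, against 57.7 and 32.0 in WT con muscle (1.85 ± 0.36, adjusted p = 0.0108), the highest fold change of the class I genes called. In all of these NRF1 KD library 1 was the lowest of its group and still above WT con. Tap1 stood at 219.9, 371 and 358 in NRF1 KD muscle and at 138 and 129 in WT con muscle (1.20 ± 0.25, adjusted p = 0.0135). Tapbp stood at 1216, 1350.4 and 1591 in NRF1 KD muscle and at 909 and 888 in WT con muscle (0.62 ± 0.15, adjusted p = 0.0247). H2-K1 stood at 4268, 4983 and 5353 in NRF1 KD muscle and at 3152 and 2719.7 in WT con muscle (0.73 ± 0.18, adjusted p = 0.0265), so that transporter, chaperone and heavy chain genes all separated the groups. The non-classical H2-T23 (0.91 ± 0.20, adjusted p = 0.0186) and H2-M3 (0.86 ± 0.21, adjusted p = 0.0279), which presents formylated peptides, completed the 8.

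On the class II side H2-DMb1, the beta chain of H2-DM, stood at 349, 745 and 615 in NRF1 KD libraries 1 to 3, against 157 and 146 in WT con libraries 2 and 3 (1.83 ± 0.31, adjusted p = 0.00637). Cd74 stood at 7488, 14021 and 11959 in NRF1 KD muscle, against 4130.1 and 5642 in WT con muscle (1.16 ± 0.31, adjusted p = 0.0371). H2-Aa stood at 3749.6, 6824 and 5939 in NRF1 KD muscle, against 2117 and 2885 in WT con muscle (2.16-fold, SE 0.23 on the log2 scale, adjusted p = 0.0155). Library 1 of NRF1 KD lay nearest to WT con, with no overlap. H2-Ab1 (1.12 ± 0.30, adjusted p = 0.0373) and H2-DMa (1.16 ± 0.31, adjusted p = 0.0368) passed too. H2-Eb1, at 3040.0, 6106 and 4722 in NRF1 KD muscle and 1946 and 2528 in WT con muscle, did not (1.00 ± 0.47, adjusted p = 0.198), nor did Ciita, at 95.1, 281 and 253 in NRF1 KD muscle and 77.3 and 117 in WT con muscle (0.98 ± 0.42, adjusted p = 0.161). NRF1 KD library 1 lay between the WT con libraries for Ciita.

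The count of 13 and the medians both moved with single libraries. The count was 4 without NRF1 KD library 2 and 3 without NRF1 KD library 3, where 595 and 424 of all genes were called higher, against 1184 with all libraries. The control group has 2 libraries, and leaving 1 out leaves 1, so only medians are given for those runs. Without WT con library 2 they were 0.84 for class I and 0.94 for class II. Without WT con library 3 they were 0.71 and 1.32. With an NRF1 KD or WT con library left out, medians ran from 0.69 to 0.91 for class I and from 0.94 to 1.45 for class II. Both were highest without NRF1 KD library 1. B2m and H2-DMb1 kept an adjusted p of at most 0.0276 and 0.0347 in every alternative run. By the authors' deposited table, 9 of 16 class I and 7 of 10 class II members have an adjusted p under 0.05 for NRF1 KD against WT con.

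**Figure D4:**
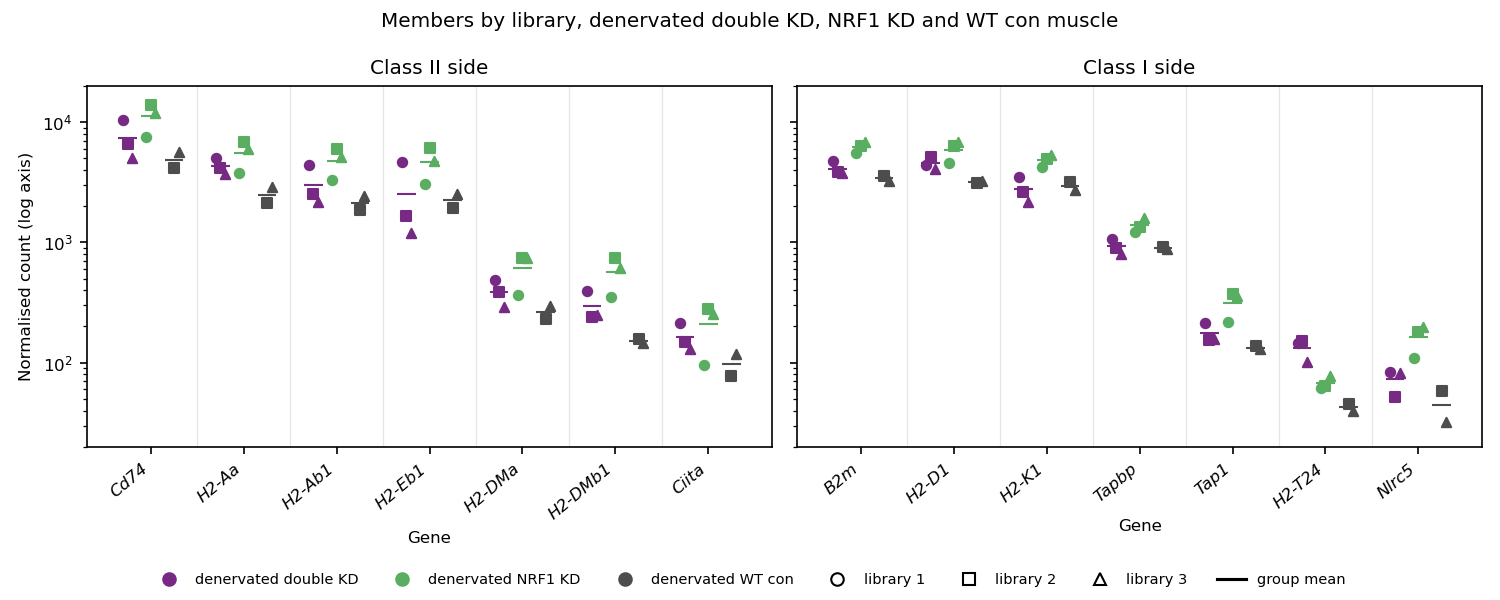
Normalised counts on a log axis for 7 class II side genes (left) and 7 class I side genes (right) in denervated double KD, NRF1 KD and WT con libraries; each point is 1 library and bars are group means. NRF1 KD points of B2m, at 5554 to 6853, lie above WT con at 3274 and 3547, and double KD points of H2-Eb1 reach from 1209 to 4707.

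Macrophage markers moved with these genes too. The 11 listed macrophage markers summed to 17978, 35210 and 36490 normalised counts in NRF1 KD libraries 1 to 3, against 7745 and 10327 in WT con libraries 2 and 3, and 11 of 11 were called higher. The class II sum over the macrophage sum was 1.03, 0.988 and 0.807 in NRF1 KD libraries and 1.37 and 1.36 in WT con libraries, lower in NRF1 KD without overlap. For class I the ratio was 1.01, 0.628 and 0.661 in NRF1 KD libraries and 1.62 and 1.16 in WT con libraries. Dendritic cell markers summed to 754 to 1127 in NRF1 KD muscle and 471 to 522 in WT con muscle, with 2 of 8 called higher, and T cell markers to 89.3 to 176 in NRF1 KD muscle and 55.5 to 62.1 in WT con muscle, with 1 of 6 listed called higher. Fibroblast markers summed to 42876 to 66948 in NRF1 KD muscle and 19005 to 36877 in WT con muscle, with 3 of 6 called higher. The part of these cells in the result was not tested.

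Among the lists outside the 29, 11 of 41 tested genes rose in NRF1 KD muscle and 0 fell. The immunoproteasome genes were called on the class I side, with Psmb8 at 577 ± 47.7 in NRF1 KD muscle and 261 ± 29.9 in WT con muscle (SD, n = 3 and 2, adjusted p = 0.00322) and Psmb10 at 741 ± 48.0 in NRF1 KD muscle and 481 ± 28.3 in WT con muscle (adjusted p = 0.00904), 3 of the 10 genes of that list in all. Of 6 class II processing genes Ctss (2.29 ± 0.39, adjusted p = 0.00660) and Ifi30 (1.53 ± 0.35, adjusted p = 0.0197) rose. Of 11 listed transcription factors Spi1 (1.89 ± 0.23, adjusted p = 0.00246) and Irf1, an interferon-induced activator of class I genes (0.80 ± 0.16, adjusted p = 0.0135), rose. Ifngr2 rose among 5 tested interferon gamma path genes (0.56 ± 0.11, adjusted p = 0.0116), Cd80 (1.71 ± 0.32, adjusted p = 0.0102) and Cd86 (1.17 ± 0.27, adjusted p = 0.0219) among 5 costimulation genes, and Fcgrt, the neonatal Fc receptor, among 4 class I related genes (0.51 ± 0.13, adjusted p = 0.0354).

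Denervated double KD muscle was compared with the same WT con libraries. Of the 26 members 1 rose and 0 fell, with 2.39% of all genes called higher and 1.7% lower, and 7 of the 26 had an unadjusted p under 0.05, beside 21.4% of all genes. The median log2 fold change was 0.26 for class I (also 0.26 without H2-Q2) and 0.65 for class II. The gene called was H2-T24, at 146, 151 and 102 normalised counts in double KD libraries 1 to 3 and 45.7 and 39.8 in WT con libraries 2 and 3 (1.60 ± 0.25, adjusted p = 0.0112). All double KD libraries lay above WT con for H2-T24, and also above NRF1 KD, at 61.5, 63.5 and 76.9. Its adjusted p ran from 0.0113 to 0.109 over the alternatives, and the log2 fold change with double KD library 1 alone was 1.75. The authors' deposited table has 2 of 16 class I members (H2-D1 and H2-T24) and 3 of 10 class II members (H2-Aa, H2-DMb1 and H2-DMb2) under 0.05 here.

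B2m stood at 4740.2, 3827 and 3781 in double KD libraries 1 to 3, against 3547 and 3274 in WT con (0.26 ± 0.13, adjusted p = 0.262). Cd74 stood at 10427, 6644 and 5043 in double KD muscle, against 4130.1 and 5642 in WT con muscle (0.54 ± 0.31, adjusted p = 0.343). H2-Eb1 stood at 4707, 1644 and 1209 in double KD muscle, against 1946 and 2528 in WT con muscle (-0.07 ± 0.47, adjusted p = 0.949). Double KD library 1 was above both WT con libraries in each of these, and libraries 2 and 3 were below both for H2-Eb1. H2-K1 stood at 3496, 2611 and 2186 in double KD muscle, against 3152 and 2719.7 in WT con muscle (-0.11 ± 0.18, adjusted p = 0.773). Without double KD libraries 2 and 3, which leaves library 1 alone, the log2 fold change was 1.09 for H2-Eb1 and 0.26 for H2-K1. The medians were then 0.38 for class I and 1.06 for class II. Of the lists outside the 29, 1 of 41 tested genes rose, Spi1 (0.99 ± 0.23, adjusted p = 0.0443), and 1 of 11 macrophage markers, C1qa, was called, although 11 of 11 were positive with an unadjusted p under 0.05. The macrophage sum was 22268, 16153 and 13950 in double KD libraries, against 7745 and 10327 in WT con libraries, and the class II sum over it was 1.16, 0.985 and 0.922 in double KD and 1.37 and 1.36 in WT con. Fibroblast markers summed to 34535 to 73641 in double KD muscle and 19005 to 36877 in WT con muscle, with 2 of 6 called higher. The part of these cells was not tested.

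**Figure D5:**
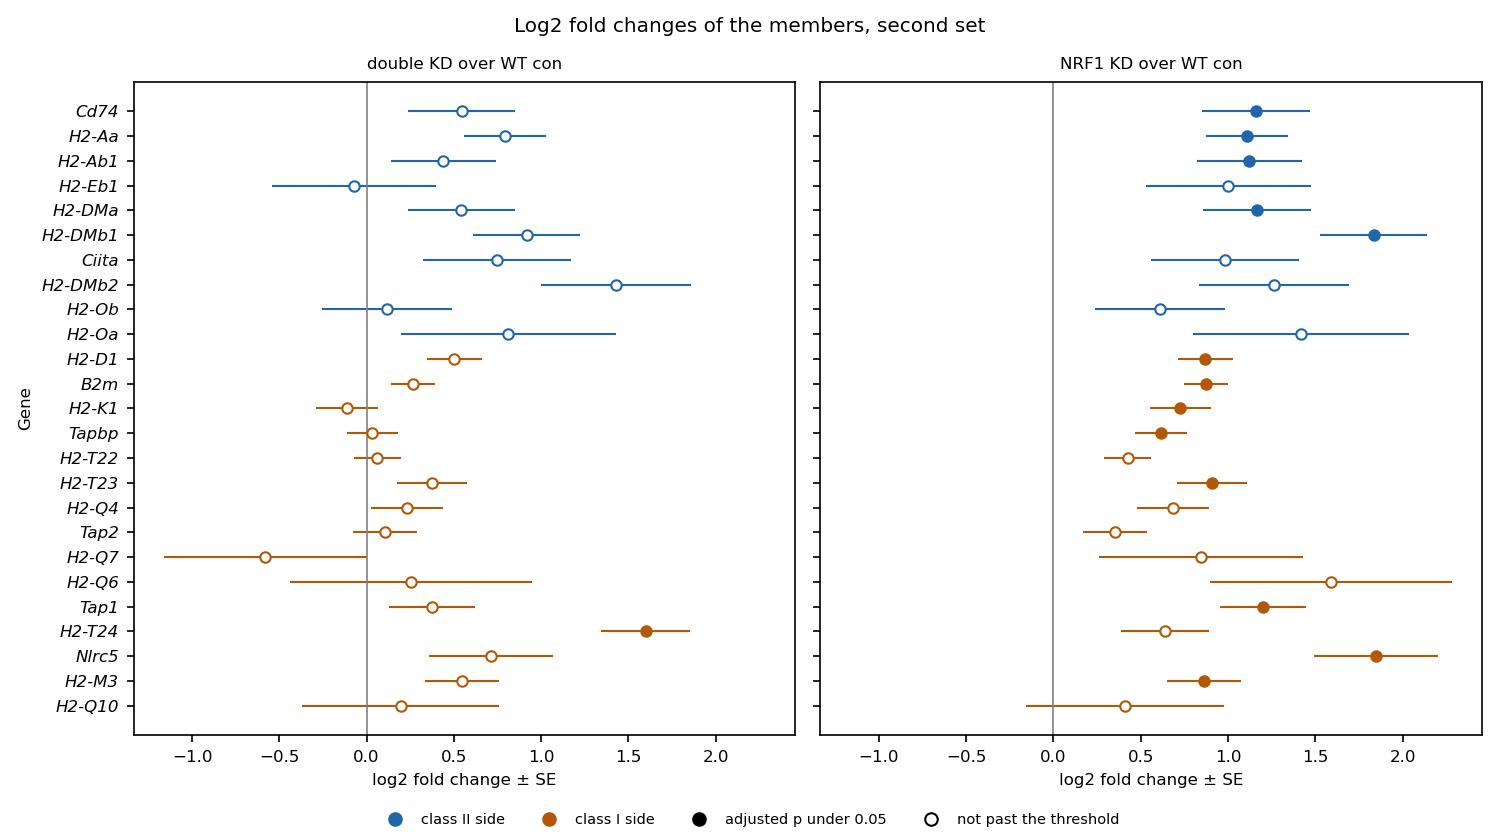
Log2 fold change with its SE (limma) for 25 members, double KD over WT con (left) and NRF1 KD over WT con (right); filled points have an adjusted p under 0.05, and H2-Q2 is left out. On the right 8 class I and 5 class II points are filled and all lie above 0; on the left H2-T24, at 1.60, is the only filled point.

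Set against NRF1 KD directly, double KD muscle had 0 of 26 members called, with 0.0768% of all genes called higher and 0.0576% lower. Of the 26, 17 had an unadjusted p under 0.05, beside 11.2% of all genes, and in 23 the sign was negative; medians were -0.49 for class I (-0.53 without H2-Q2) and -0.61 for class II. H2-K1 was at -0.84 ± 0.16 (adjusted p = 0.0832) and B2m at -0.61 ± 0.11 (adjusted p = 0.0824), both with every double KD library below every NRF1 KD library, as in 8 of 16 class I members and 0 of 10 class II members, beside 8.28% of all genes. H2-T24, at 0.96 ± 0.23 (adjusted p = 0.151), was the 1 member with every double KD library above, beside 8.03% of all genes. Without double KD libraries 2 and 3 the class II median was -0.06 and the class I median -0.40, with H2-K1 at -0.47 and H2-Eb1 at 0.08. Without double KD library 1 there were 1 higher and 4 lower, beside 69 and 89 over all genes. Without NRF1 KD library 1 there were 4 lower, beside 124 over all genes. With all libraries 12 genes were called higher and 9 lower. Macrophage markers summed to 13950 to 22268 in double KD muscle and 17978 to 36490 in NRF1 KD muscle, with 0 of 11 called.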

How the data were processed

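Per the labels' protocols, RNA was taken with TRIzol and 1 ug went into each library with a SMARTER mRNA-Seq kit. GRCm38 and mm10 are the builds of the submitters' processing notes; the aligner, counter, annotation and strandedness are not stated there. Unscaled counts per gene are what the authors deposited for PAX4 KO, denervated WT and innervated WT libraries. Values for the 8 other libraries are on a log2 scale as the authors deposited them, whose smallest value is 6.84 and which invert to normalised counts on the variance-stabilised scale of DESeq2. The mean signal the authors deposited, counts over size factors, was matched to within 3.34e-07%, and all recovered read numbers (100%) were whole to a tolerance of 0.05. The p-value columns the authors deposited, adjusted p among them, are from their own tests and were used as the authors' values only.

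Columns were tied to groups by their names. The labels list 23 samples, of which 6 had no column and were not analysed here; 0 columns were left unused. Libraries of the first set are numbered in ascending order of the numbers in the column names. The main test of the first set was edgeR's quasi-likelihood F test (edgeR 4.0.16, R 4.3.3), all 3 groups sharing 1 fit, after TMM scaling and filterByExpr; 27 of 29 members passed the filter. For the second set, limma-trend (limma 3.58.1) was run on normalised counts, log2 transformed after adding 1, which understates changes of low genes. A Benjamini-Hochberg adjusted p under 0.05 over all genes tested is the threshold. Levels are CPM at TMM-scaled library sizes, or normalised counts, with the SD over libraries. Fold changes carry SEs, which for limma are from the fit. For edgeR the SE is approximate, being the absolute log2 fold change divided by the square root of the F statistic. The scripts were tested on simulated data.

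Alternatives were DESeq2 1.42.0, DESeq2 size factors, limma-voom, other count minimums (5 CPM, 100 normalised counts) or none, pseudocounts of 0.1 and 5, edgeR on recovered reads, the deposited log2 values, a log2 fold change of at least 1, only the groups compared, each library left out, pairs of libraries left out and a replicate block. The members, lists and tests were chosen with earlier results of these data known. The rule for genes given in every library took H2-K1, H2-D1, B2m, Tap1, Tapbp, Nlrc5, Cd74, Ciita, H2-Aa, H2-Ab1, H2-Eb1 and H2-DMa and up to 8 other called members by smallest adjusted p; lists outside the 29 show up to 2 called genes in each direction. Gene positions came with the raw counts, exon lengths are from a GENCODE annotation on GRCm38, and promoters from RefSeq (GRCm38.p6). Gene bounds differed between the raw counts and that annotation for some members, among them Cd74, H2-Aa, H2-Ab1, H2-Eb1 and H2-K1. Levels per kilobase are therefore approximate. Counts set the precision, and limits at 0 counts cover counting error only.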

Additional observations from a re-analysis of the deposited data

Results flagged for a closer look

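H2-Ea-ps, a transcript outside the 29 genes, gave 39 to 87 reads in 4 libraries of PAX4 KO and double KD muscle, above the 0 or 1 read in the WT libraries. It had 87 reads in PAX4 KO library 2 and 59 in PAX4 KO library 3, or 3.17 and 1.44 CPM, against 0, 1 and 0 reads in denervated WT libraries and 0 in each innervated WT library, where a count of 0 allows at most 0.148 CPM. In the second set it had 42 reads in double KD library 2 and 39 in double KD library 3, against 0 in WT con and in NRF1 KD. PAX4 KO library 1 and double KD library 1 also had 0 reads, so libraries with the same label differed. The reads came with the ratios of H2-Eb1 to H2-Ab1 and of H2-K1 to H2-D1 given above; what sets these libraries apart was not tested.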

How the results depend on the processing

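No fold change of a called member changed sign. Of the single-gene values under the alternatives, 2264 stayed, 128 moved, 112 lost and 38 gained the threshold. The count of members higher in denervated WT muscle was 8, and 2 to 9 with a library left out; it was 4 without innervated WT library 2 and denervated WT library 1 together, and a replicate block gave 7 higher and 1 lower (H2-Q6), against 0 lower without the block. PAX4 KO against denervated WT had 0 higher, 2 with DESeq2 and 1 with no filter on low counts, where 140 and 348 of all genes were called higher. PAX4 KO against innervated WT had 13 higher, 8 to 16 with a library left out, and 1 lower. The lower gene, H2-Ke6, averaged under 5 CPM and so was not tested at that minimum. Leaving out PAX4 KO libraries 2 and 3 (an alternative chosen after seeing the data) left 1 library, so only fold changes and medians are given above. NRF1 KD against WT con had 13 higher, 3 to 15 with a library left out, and 4 with a replicate block. Double KD against WT con had 1 higher, 0 to 4 with a library left out, and 0 with a replicate block. The gene called, H2-T24, averaged under 100 normalised counts and so was not tested at that minimum. Leaving out double KD libraries 2 and 3 (also chosen after seeing the data) left 1 library, so only fold changes and medians are given above. Double KD against NRF1 KD had 0 to 1 higher and 0 to 4 lower with a library left out. Calls over all genes also differed between these runs, as given above for some of them. The cause of these shifts was not tested.

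The column names of denervated and innervated WT libraries share their numbers, which may mark the same animals, but the labels do not say so and pairing was not assumed. Deviations of same-numbered denervated and innervated WT libraries correlated at 0.237, 0.0375 and 0.282. Each library correlated best with its own number, though denervated WT library 2 only just, with 0.00947 for innervated WT library 1. Deviations are taken from the group mean, so these matches are not independent and cannot decide whether the libraries are paired. In the second set the values were 0.132 and 0.373 for NRF1 KD with WT con, -0.0766 and -0.406 for double KD with WT con and -0.386, -0.115 and -0.453 for double KD with NRF1 KD. WT con has 2 libraries, whose deviations mirror each other. Each value with WT con therefore returns with the opposite sign for the other WT con library. No paired analysis was possible for PAX4 KO because its column numbers are shared with no other group. Depth limits the genes at few counts, H2-M2, H2-M9, H2-Q2 and H2-Oa.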

Other observations

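The class II ratio H2-Aa to H2-Ab1 was 1.65 and 1.73 in double KD libraries 2 and 3, against 1.13 to 1.20 in the other libraries of the second set; in the first set it was 1.52 and 1.51 in PAX4 KO libraries 2 and 3, against 1.30 to 1.71 in the others. H2-Q2, a non-classical heavy chain, had 8, 0 and 4 counts in PAX4 KO libraries, 1, 2 and 8 in denervated WT libraries and 0, 6 and 1 in innervated WT libraries of the count table. The authors' deposited table lists H2-Q2 at 7.33 on the log2 scale for denervated against knockdown muscle and at 7.93 for double KD against WT con. The neutrophil marker sum was 27.7 to 51.1 CPM in PAX4 KO muscle, 20.5 to 129.6 CPM in denervated WT muscle and 2.27 to 4.09 CPM in innervated WT muscle, with Elane at 0 throughout denervated WT, and the endothelial sum was 506 to 696 CPM in PAX4 KO muscle, 495 to 663 CPM in denervated WT muscle and 906 to 995 CPM in innervated WT muscle.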
